A study of Mus musculus with 6 samples.

Results

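The serum amyloid A (SAA) genes Saa1, Saa2 and Saa3, 3 of the 32285 mouse features counted, were followed across the cell classes of the small intestinal mucosa by their symbols. Raw molecule counts, shares of positive cells and joint detection by class and label had chosen these 3 genes, so their differences between the labels are given below as description, without a test. The cells came from 3 control littermates, which carried HuR fl/fl without Cre, and from 3 mice labelled IE-HuR-/-, bred from villin-Cre, which is active across the intestinal epithelium, and HuR fl/fl. All mice were on the C57BL/6 background, were 6 to 8 weeks old, and per the methods had been fasted for 24 h with free access to water, whereas the labels give ordinary feeding. The 3 droplet libraries of each label were sequenced, and each captured RNA carried a unique molecular identifier (UMI). The libraries held 60706 barcodes and 428980031 UMIs in all.

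SAA proteins are small secreted apolipoproteins that bind HDL and retinol. Saa1 and Saa2 are the acute-phase forms of the liver and are also made by the epithelium of the distal intestine, where contact with microbes and the cytokines IL-22 and IL-17 induce them through STAT3, NF-κB and C/EBP factors. Saa3 is the form best known from macrophages, adipose tissue and inflamed mucosa, and Saa4 is the constitutive member of the family.

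The genes lie in 1 cluster of 42316 bases on chromosome 7 (GRCm38, chr7:46711998-46754313). Saa1 (ENSMUSG00000074115) spans chr7:46740497-46742980 on the minus strand, Saa2 (ENSMUSG00000057465) spans chr7:46751790-46754313 on the plus strand, and Saa3 (ENSMUSG00000040026) spans chr7:46711998-46715700 on the minus strand, each with 4 exons in its first annotated transcript. The starts of Saa1 and Saa2 are 8810 bases apart and face away from each other. The stretch from 250 to 51 bases before each start (RefSeq, GRCm38.p6) is shown because most ileal cells with Saa2 also had Saa1, while the highest Saa3 counts lay outside the enterocytes and goblet cells. Capitals mark each match to the C/EBP motif TTGCNNAA on either strand.
Saa1 (chr7:46743031-46743230, minus strand): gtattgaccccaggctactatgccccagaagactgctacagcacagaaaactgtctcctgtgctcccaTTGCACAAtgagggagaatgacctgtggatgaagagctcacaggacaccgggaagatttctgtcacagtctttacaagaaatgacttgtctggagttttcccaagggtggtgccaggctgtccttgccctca
Saa2 (chr7:46751583-46751782, plus strand): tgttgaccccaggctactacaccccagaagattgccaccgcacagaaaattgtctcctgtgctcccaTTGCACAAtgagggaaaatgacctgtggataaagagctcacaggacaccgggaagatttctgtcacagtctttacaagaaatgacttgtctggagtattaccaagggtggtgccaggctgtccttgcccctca
Saa3 (chr7:46715727-46715926, minus strand): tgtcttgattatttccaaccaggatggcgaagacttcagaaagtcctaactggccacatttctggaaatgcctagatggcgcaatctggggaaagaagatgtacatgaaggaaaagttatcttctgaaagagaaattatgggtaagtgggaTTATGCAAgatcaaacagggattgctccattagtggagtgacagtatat
The Saa1 and Saa2 stretches were identical at 188 of 199 aligned bases (94.5%), and both held TTGCACAA on the sense strand. It lay 182 to 175 bases before the RefSeq start of Saa1 and 183 to 176 before that of Saa2. The RefSeq starts of Saa2 and Saa3 differ from the starts of the spans given above. Saa3 held its match on the antisense strand, 99 to 92 bases before its RefSeq start, and was identical to Saa1 at 102 of 182 aligned bases. The motif was in 8.1% of 32851 RefSeq stretches of the same length. TTCNNNGAA, the STAT motif, and the NF-κB consensus were not found in the 3 stretches, against 5.8% and 5.7% of all stretches. A match is a description of letters and says nothing about binding.

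The transcripts of Saa1 and Saa2 were identical at 572 of 606 aligned bases (94.4%), and 10 of 520 windows of 90 bases of Saa1 (1.9%) also occurred in Saa2 without a mismatch. The labels name a 5′ kit and the methods a 3′ kit, so the sequenced end of the transcripts is not settled, and the assignment of molecules between Saa1 and Saa2 is uncertain.

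Elavl1, which encodes HuR, was first checked in every library. In enterocytes it had 28.5, 30.4 and 28.1 CPM (UMIs of the gene per 1e6 UMIs of the class) in control replicates 1, 2 and 3, and 28.9, 29.5 and 30.7 CPM in the libraries labelled IE-HuR-/-, so its RNA did not mark the deletion over all enterocytes (log2 fold change 0.20, SE 0.05, edgeR adjusted p = 0.00108, but 0.033 without TMM scaling, adjusted p = 0.561). Ileal enterocytes (defined further on) had 34.5, 31.25 and 31.4 CPM of Elavl1 against 21.5, 22.3 and 23.2 CPM, without overlap. The log2 fold change there was −0.20 (SE 0.13) and did not pass the threshold (edgeR adjusted p = 0.233). Goblet cells had a log2 fold change of 0.01 (SE 0.13, edgeR adjusted p = 0.967), with overlap. Enterocytes, goblet cells and other classes were gated on lists of marker genes among barcodes with at least 200 genes and 2000 UMIs. The gate held 26037 barcodes, of which 18428 were enterocytes, 980 goblet cells, 4601 T/NK cells and 197 myeloid cells. Enterocytes numbered between 2210 and 4614 in a control library and between 2684 and 2716 in a library labelled IE-HuR-/-, and all 13 enterocyte markers were detected. No library stood apart as a copy of another (over genes, the chi-square of 2 libraries of 1 label divided by its degrees of freedom was between 5.76 and 16.0), and 435 of 60271 barcode sequences occurred in 2 libraries.

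Saa1 was low in the control enterocytes and goblet cells and higher in every library under the other label. Control enterocytes had 4.06, 2.43 and 6.001 CPM of Saa1, and those labelled IE-HuR-/- had 259, 315 and 260.2 CPM, a ratio of means of 66.8 (4.16 ± 1.79 against 278 ± 32.2 CPM, SD, n = 3 libraries each). The lowest library labelled IE-HuR-/- was far above the highest control library. Goblet cells had 14.9, 4.81 and 9.04 CPM in the control libraries and 585, 795 and 824 CPM in the others, a ratio of 76.6 (9.58 ± 5.07 against 734 ± 130.4 CPM, SD, n = 3 each). The label groups did not overlap in goblet cells either. This contrast was used to choose the gene. For reference, 27% of the 12700 RNAs tested in enterocytes rose and 31.1% fell (edgeR quasi-likelihood test, Benjamini-Hochberg adjusted p under 0.05), and 14.4% of 9059 RNAs rose and 12.3% fell in goblet cells. Without TMM scaling, which shifted the median of all RNAs by −0.162 and −0.175 on the log2 scale, the rises made up 23.3% instead of 46.5% of the called RNAs in enterocytes and 25.2% instead of 54.0% in goblet cells.

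**Figure D1:**
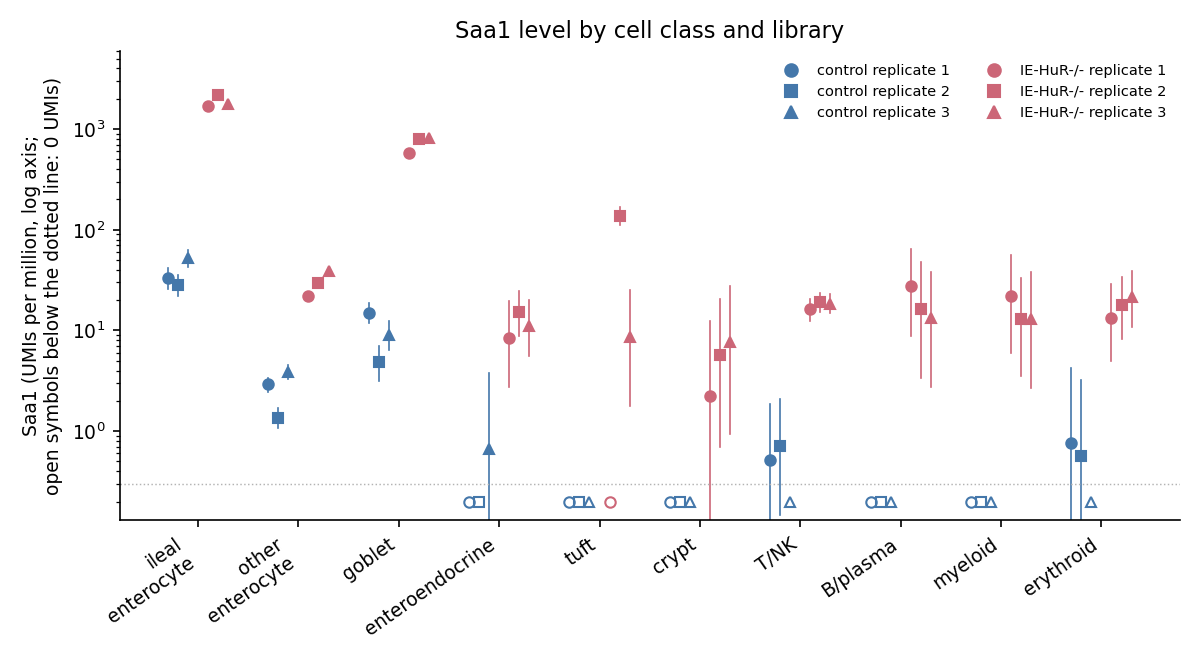
Level of Saa1 in each cell class (x axis) and library (symbols; blue control, red IE-HuR-/-), in CPM on a log axis, with exact Poisson 95% intervals as bars and open symbols below the dotted line for 0 UMIs. Ileal enterocytes (1698 to 2167 CPM) and goblet cells (585 to 824 CPM) labelled IE-HuR-/- lie above the other gated classes, the highest of which outside the enterocytes is a tuft cell sum at 137 CPM.

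The other classes were much lower. Tuft cells had 0 UMIs of Saa1 in the 3 control libraries, and 0, 137 and 8.55 CPM in the libraries labelled IE-HuR-/-, where a single cell of replicate 2 held 94 of its 97 UMIs. Enteroendocrine cells, the hormone-secreting lineage, had 0, 0 and 0.671 CPM against 8.47, 15.3 and 11.1 CPM. Crypt cells had 0 UMIs in the control libraries and 2.24, 5.71 and 7.67 CPM in the others, on 5 UMIs in all. Only 1 UMI was seen in the 11 Paneth-gated cells, which is too few to describe.

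Cells outside the epithelium served as the reference for Saa1 counted in cells that should lack it, since free RNA was not measured on its own. T/NK cells, in which SAA genes are not known to be active, had 0.517, 0.720 and 0 CPM of Saa1 in the control libraries and 16.2, 19.2 and 18.5 CPM in those labelled IE-HuR-/-. Erythroid cells had 0.766, 0.572 and 0 CPM against 13.4, 18.0 and 21.6 CPM. The sums of B/plasma cells lay between 13.2 and 27.4 CPM and those of myeloid cells between 13.0 and 22.1 CPM under the label IE-HuR-/-, with 0 UMIs in the control libraries. In order of level in the libraries labelled IE-HuR-/-, ileal enterocytes (defined further on) came first and goblet cells next, without overlap between them. The remaining enterocytes followed at 21.8 to 39.4 CPM, above T/NK cells and overlapping with B/plasma and myeloid cells. The values of B/plasma, T/NK, erythroid and myeloid cells overlapped, and free RNA and expression in these cells cannot be told apart. Fibroblasts had 48.5, 31.8 and 0 CPM on 3, 1 and 0 UMIs.

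Shares of positive cells were compared after each cell was thinned to 2000 UMIs, since detection rises with depth. Without thinning, 1.66, 1.37 and 1.76% of control enterocytes had at least 1 Saa1 UMI, against 21.4, 21.4 and 21.6% of those labelled IE-HuR-/-. After thinning, 0.487, 0.390 and 0.362% were positive against 9.95, 9.98 and 9.70%. The corresponding shares of goblet cells were 11.7, 4.72 and 7.30% against 51.7, 53.0 and 59.3% before thinning, and 3.57, 1.97 and 2.19% against 27.3, 29.6 and 33.3% after it. Of T/NK cells, 0.278, 0.336 and 0% were positive in the control libraries, and 7.76, 8.91 and 9.36% in the others before thinning. Control replicate 3 had 0 of 460 cells, which allows up to 0.652% of cells with a UMI and does not limit the share that express the gene. After thinning, 4.68, 3.80 and 4.68% of T/NK cells labelled IE-HuR-/- were positive, with a mean between 1.00 and 1.09 UMIs per positive cell. Median depths before thinning were between 4430.5 and 5092.5 UMIs for these T/NK cells and between 9250 and 10194 UMIs for the enterocytes. The shares of enterocytes and goblet cells were thus above those of the cells that should lack the gene.

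The level per positive cell differed as well. In thinned cells, positive enterocytes held a mean of 1.88, 1.5 and 1.75 Saa1 UMIs in the control libraries and 4.10, 4.24 and 3.81 UMIs in those labelled IE-HuR-/-. Positive goblet cells held 1.86, 1.20 and 1.00 UMIs against 3.69, 4.44 and 4.36 UMIs. Both the share of positive cells and the content of a positive cell were therefore higher under the label IE-HuR-/- in both classes, in every library. The control means rested on few positive cells, and 1.00 is the lowest value such a mean can take.

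The molecules were concentrated in few cells. All barcodes of the control libraries held 326, 205 and 320 Saa1 UMIs in 100, 97 and 55 barcodes, and those of the other libraries held 14064, 18099 and 16022 UMIs in 1239, 1263 and 1270 barcodes. Of these, 830, 811 and 859 barcodes had a single UMI. Barcodes with 20 or more Saa1 UMIs held 83.1, 87.1 and 85.5% of all Saa1 UMIs in the libraries labelled IE-HuR-/-. The cell with the highest count, an enterocyte of replicate 2, held 2312 UMIs, and without it the enterocytes of that library had 266 instead of 315 CPM.

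Saa1 was further described along the length of the small intestine. The ileum, its distal part, was represented by the summed share of Fabp6 (the ileal bile acid binding protein), Slc10a2 (the apical bile acid transporter), Fgf15 (a hormone induced by bile acids) and Osr2. Enterocytes with at least 0.5% of their UMIs from this list are called ileal enterocytes here. That is a range on a score, not a cell type. Between 0.1 and 0.5% lay 110, 168 and 64 control enterocytes and 127, 129 and 161 of the others, and between 0.5 and 1% lay 54, 63 and 34 against 94, 76 and 57 cells.

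Ileal enterocytes had the highest Saa1 level of all classes. They had 33.1, 28.4 and 52.2 CPM in the control libraries and 1698, 2167 and 1779 CPM in those labelled IE-HuR-/-, a ratio of means of 49.7 (37.9 ± 12.6 against 1882 ± 250.3 CPM, SD, n = 3 each). In control replicate 3, 1 cell held 89 of the 103 UMIs, and without it the level was 7.25 CPM. After thinning, 3.57, 3.37 and 4.21% of ileal enterocytes were positive in the control libraries and 50.7, 53.7 and 50.7% in the others. The median positive ileal enterocyte, before thinning, held 2, 2 and 1 Saa1 UMIs against 9, 10 and 12 UMIs. The ileal enterocytes also supplied 70.1, 73.7 and 65.9% of all Saa1 UMIs of the libraries labelled IE-HuR-/-, goblet cells 15.7, 13.8 and 18.1%, and the remaining enterocytes 5.46, 6.50 and 10.0%. In the control libraries the ileal enterocytes held 21.5, 34.6 and 32.2% and the remaining enterocytes 47.9, 40.5 and 52.5%.

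**Figure D2:**
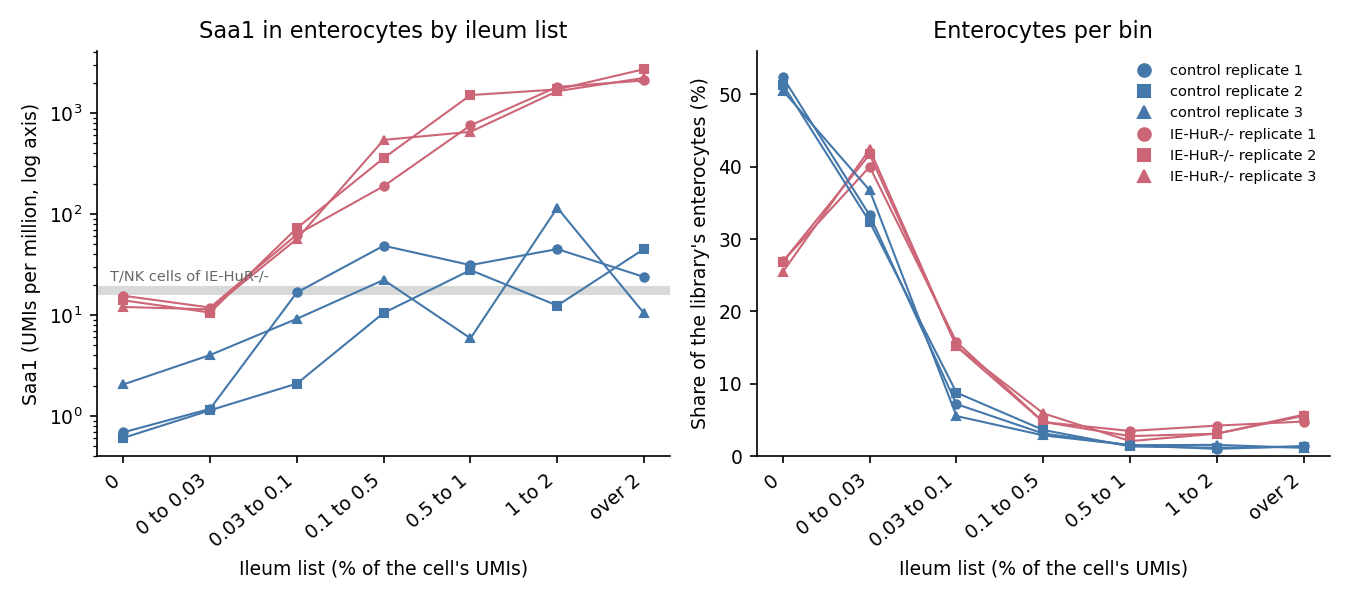
Left, Saa1 in enterocytes (CPM, log axis) binned by the percentage of a cell's UMIs from the ileum list. Right, the percentage of each library's enterocytes in each bin. Symbols are the 3 control (blue) and 3 IE-HuR-/- (red) libraries, and the grey band spans the T/NK cells of the libraries labelled IE-HuR-/-. The red lines start at or below the band and rise to between 2101 and 2718 CPM.

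The remaining enterocytes had 2.91, 1.36 and 3.89 CPM against 21.8, 29.5 and 39.4 CPM. Their thinned positive shares of 4.09, 4.29 and 4.64% under the label IE-HuR-/- lay within those of T/NK cells. Their positive cells held a mean of 1.44, 1.47 and 1.45 UMIs after thinning against 1.00 to 1.09 UMIs in T/NK cells. Within them, cells without any UMI of the ileum list had 15.5, 14.0 and 12.0 CPM, and those with more than 0 and up to 0.03% had 11.9, 10.6 and 11.4 CPM, all below the lowest T/NK value of 16.2 CPM. From 0.03 to 0.1% the level was 62.7, 72.6 and 56.7 CPM, from 0.1 to 0.5% it was 189, 358 and 542 CPM, from 0.5 to 1% 755, 1506 and 652 CPM, from 1 to 2% 1816, 1714 and 1647 CPM, and above 2% 2101, 2718 and 2228 CPM. From the second bin on, the level was higher at each step of the ileum list in 3 of 3 libraries labelled IE-HuR-/-. The bins differed in depth. Median UMIs per cell lay between 18447 and 20616 in the second bin and between 3279.5 and 3368.5 in the third. The part of depth in these steps and in the comparison with T/NK cells was not tested. The highest control bin had 115 CPM, on 94 UMIs.

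The ileum list itself moved with the label. Ileal enterocytes were 4.01, 3.86 and 4.30% of control enterocytes and 12.6, 11.5 and 11.0% of the others. Fabp6 had between 689 and 759 CPM in control enterocytes and between 2942 and 3102 CPM in the others, Slc10a2 between 50.9 and 52.6 against between 109 and 131 CPM, and Fgf15 between 1.64 and 2.06 against between 5.69 and 7.28 CPM. Osr2 went the other way, between 32.8 and 33.8 against between 26.6 and 27.8 CPM. Of the proximal markers, Lct (lactase) had between 1072 and 1170 CPM in control enterocytes and between 576 and 588 CPM in the others. More distal cells in a library and higher expression of the list in each cell cannot be told apart here. If every library had held the mean control share of ileal enterocytes, Saa1 would have been 4.13, 2.46 and 5.84 CPM in the control libraries and 89.5, 116 and 110 CPM in the others. Defined instead by at least 2 UMIs of Slc10a2, ileal cells were 6.75, 6.42 and 7.74% of control and 11.0, 10.53 and 11.0% of the other enterocytes, with 28.6, 14.9 and 32.0 against 1452, 1770 and 1456 CPM of Saa1. The ratio of Saa1 between the labels inside the ileal range was 46.3 at a threshold of 0.2%, 45.2 at 1% and 88.7 at 2%. A list of 5 hepatocyte genes summed to between 0.521 and 0.754 CPM in control enterocytes and between 0.620 and 0.706 CPM in the others.

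Ileal enterocytes were also ordered along the villus by a list of lower-villus genes (Nlrp6, Lypd8, Ccl25, Gsdmc4) and cut into 3 equal parts per library. In the libraries labelled IE-HuR-/-, the part with the least of this list had 899.7, 1558 and 1032 CPM of Saa1, and the part with the most had 2462, 2985 and 2138 CPM. The level was higher in the lower-villus part in 3 of 3 libraries. With a list of villus-tip genes, the part with the most had 1240, 1368 and 1367 CPM against 2253, 2437 and 2852 CPM in the part with the least. The middle part of this order was the highest in IE-HuR-/- replicate 2 (2665 CPM) and the lowest in replicate 3 (1140 CPM). In the control libraries the middle part of the lower-villus order was highest, at 63.6, 37.0 and 199 CPM, and the part with the most of the list had 25.03, 22.7 and 4.80 CPM. The control ileal enterocytes held only 70, 71 and 103 Saa1 UMIs, of which a single cell held 21, 24 and 89, so these control values rest on few cells. The parts also differed in depth, with median UMIs per cell between 6192 and 13552 in the part with the least of the lower-villus list and between 17051 and 20389 in the part with the most, and the part of depth in the difference between the parts was not tested.

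Goblet cells, the mucus-secreting lineage, differed from enterocytes in their Saa1 level where the ileum list was absent. Whether this list places goblet cells along the intestine was not tested. Goblet cells of the libraries labelled IE-HuR-/- without any UMI of the ileum list still had 99.9, 176 and 200 CPM of Saa1, where the enterocytes without the list had 12.0 to 15.5 CPM and T/NK cells 16.2 to 19.2 CPM. These sums held 28, 23 and 30 goblet cells. Above 2% of the list, goblet cells had 2614, 2422 and 2846 CPM in 5, 2 and 3 cells. Fabp6 in goblet cells was 572, 461 and 1375 CPM in the control libraries and 2515, 3569 and 3194 CPM in the others, and doublets of goblet cells with enterocytes were not removed. The part of either in the goblet values was not tested.

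Saa2 was counted mostly under the label IE-HuR-/- and in cells with Saa1. All barcodes of the control libraries held 6, 1 and 6 UMIs, and those of the others 188, 128 and 145 UMIs. In ileal enterocytes the level was 0.473, 0 and 1.01 CPM against 24.3, 15.9 and 16.5 CPM, in goblet cells 0, 0 and 0.226 against 5.55, 4.45 and 7.67 CPM, and in all enterocytes 0.0897, 0.0158 and 0.111 against 3.65, 2.34 and 2.29 CPM. The label groups did not overlap in any of the 3. In T/NK cells a single Saa2 UMI was counted in the 6 libraries.

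Of 153 ileal enterocytes of the libraries labelled IE-HuR-/- with Saa2, 151 also had Saa1, and so did 34 of 34 goblet cells. Before thinning, the joint share was 15.7, 16.3 and 15.8% of ileal enterocytes, where the product of the single shares was 11.1, 12.2 and 10.8%. Detection rises with depth, and the part of depth in this difference was not tested. Ileal enterocytes with both RNAs held a median of 100, 110 and 85 Saa1 UMIs, and those with Saa1 alone held 5, 5 and 6. Among ileal enterocytes with at least 100 Saa1 UMIs, 27 of 28, 26 of 37 and 22 of 28 had Saa2, whereas 0 of 100, 2 of 88 and 0 of 94 cells without Saa1 did. Saa2 was counted at 1.43, 0.735 and 0.928 UMIs per 100 Saa1 UMIs in ileal enterocytes, and at 0.949, 0.561 and 0.932 in goblet cells. Because the transcripts are near-identical, how far some of the Saa2 counts in these cells are Saa1 molecules was not tested.

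**Figure D3:**
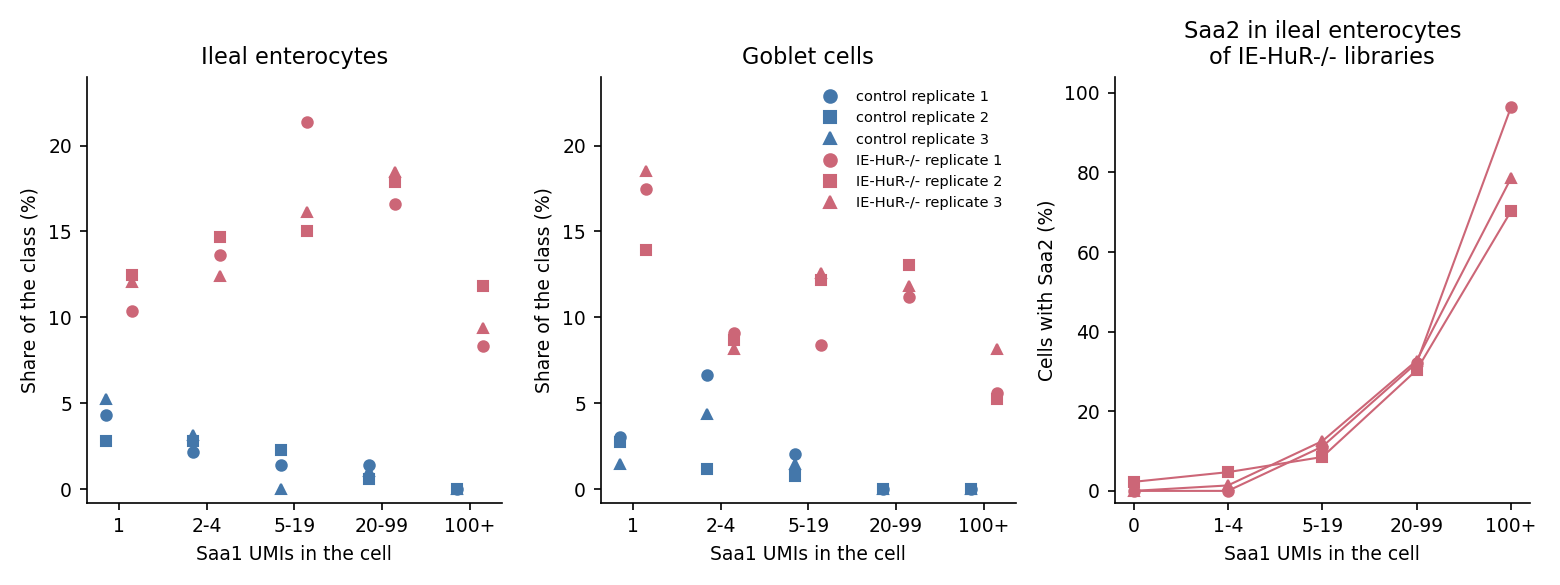
Share of ileal enterocytes (left) and goblet cells (middle) by the number of Saa1 UMIs in the cell, and share of ileal enterocytes of the libraries labelled IE-HuR-/- with Saa2 in each range of Saa1 UMIs (right), in percent. Symbols are libraries (blue control, red IE-HuR-/-). No control cell of either class reached 100 Saa1 UMIs, and the share with Saa2 climbs from 0 to 2.27% without Saa1 to between 70.3 and 96.4% at 100 or more.

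Saa3 had another distribution. All barcodes of the control libraries held 101, 149 and 37 UMIs and those of the others 445, 400 and 58 UMIs, so the label groups overlapped. Myeloid cells had 101, 352 and 4.15 CPM in the control libraries and 739, 1094 and 17.3 CPM in the others. In both label groups replicate 3 was far below the other two. In enterocytes Saa3 was at 0.269, 0.458 and 0.509 CPM against 0.852, 0.868 and 0.449 CPM, with overlap, and in goblet cells at 0.611 against 0.566 CPM on average.

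High Saa3 counts were found in few cells. The cells with 5 or more Saa3 UMIs were 12 myeloid cells, 1 cell with markers of several classes and 1 fibroblast-gated cell with 222 UMIs in IE-HuR-/- replicate 1. Of the 12 myeloid cells, 8 came from libraries labelled IE-HuR-/- and held 468 UMIs, and 4 came from control libraries and held 127. All 12 had C1qa, C1qb and C1qc, the complement genes of resident macrophages, and Lyz2, against 34 of 178 (C1qa) and 89 of 178 (Lyz2) myeloid cells without Saa3. Cd14, the lipopolysaccharide co-receptor, was in 10 of 12 against 20 of 178. Among other markers of the myeloid gate, Aif1 went the other way, in 5 of 12 against 95 of 178. Tyrobp (2437 against 3621 CPM), Fcer1g (921 against 1204 CPM) and Cd68 (269 against 288 CPM) were lower by level in the 12 cells. By share of cells they were not lower. Tyrobp and Fcer1g were in 12 of 12 against 175 and 174 of 178, and Cd68 in 10 of 12 against 129 of 178. Detection rises with depth, which was not matched here. None of the 12 had Itgax (CD11c), Il1b, Saa1 or Saa2, whereas 98 of 178 and 39 of 178 of the other cells had Itgax and Il1b. The 12 cells were chosen on Saa3, so these counts describe them and test nothing. In ileal enterocytes of the libraries labelled IE-HuR-/-, 25 of 27 cells with Saa3 also had Saa1 and 12 also had Saa2. Before thinning, the joint share of Saa1 and Saa3 was 2.37, 3.51 and 2.01%, where the product of the single shares was 1.88, 2.76 and 1.38%. The part of depth in this difference was not tested either. In the control libraries 1 of 4 ileal enterocytes with Saa3 had Saa1. Saa4 was counted once in each of control replicates 1 and 2 and IE-HuR-/- replicate 1, and not in the other libraries.

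**Figure D4:**
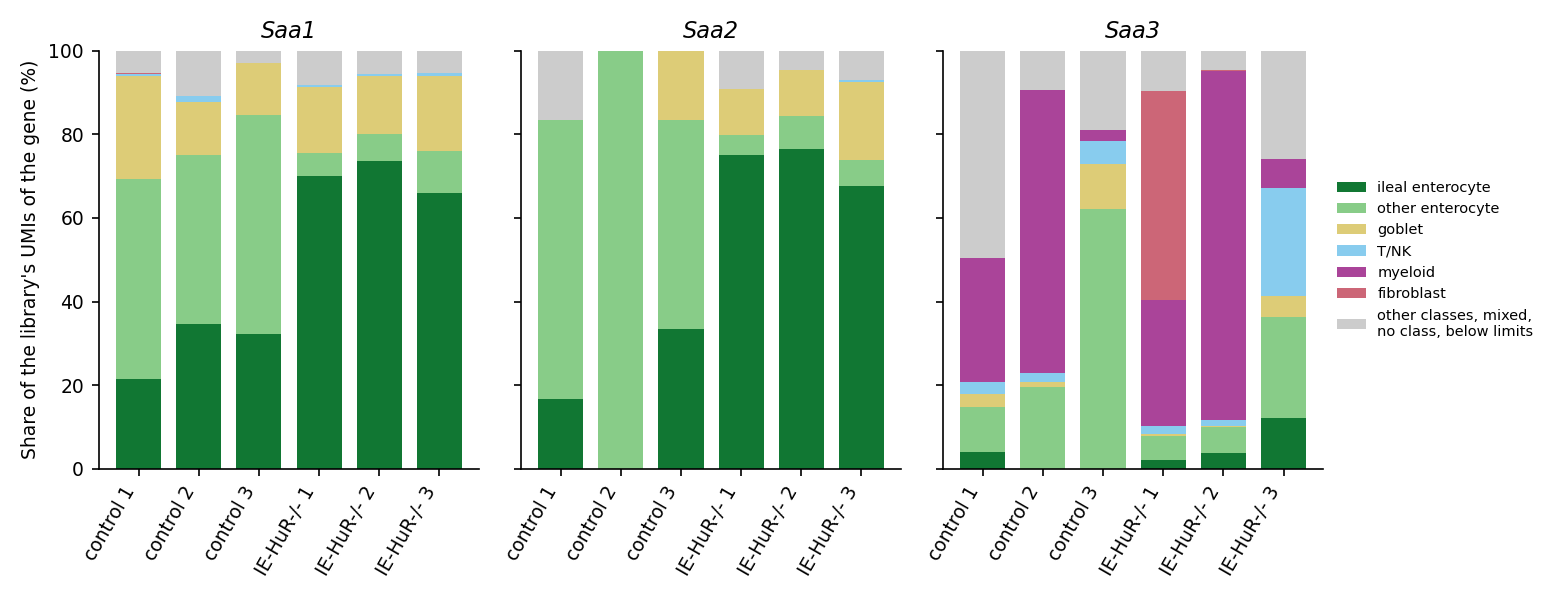
Share of each library's UMIs of Saa1, Saa2 and Saa3 (panels, percent of the gene's UMIs, bars from 0) by the class of the cell they were counted in. Ileal enterocytes hold 65.9 to 73.7% of Saa1 in the libraries labelled IE-HuR-/-, while Saa3 comes mainly from myeloid cells in replicate 2 of both labels and, in IE-HuR-/- replicate 1, from 1 fibroblast-gated cell.

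Other genes were then compared, on UMI sums per library and class, to see what accompanied the SAA genes. Of 16 epithelial defence genes known to respond to IL-22 and IL-17, 11 could be tested in enterocytes. Of these, 9 rose and 2 fell, with a median log2 fold change of 1.00 against −0.03 over all RNAs tested, and with 27% of all RNAs rising. Duox2 (dual oxidase, a source of hydrogen peroxide) had 62.0, 62.4 and 57.8 CPM in the control libraries and 391, 375 and 367 CPM in the others (log2 fold change 2.80, SE 0.05, edgeR adjusted p = 1.82e-26). Its maturation factor Duoxa2 rose by 2.75 (SE 0.05, adjusted p = 1.18e-24). Fut2, the fucosyltransferase of the gut surface, rose by 3.28 (SE 0.14, adjusted p = 1.25e-17). The antimicrobial lectins Reg3b and Reg3g rose by 2.34 (SE 0.06, adjusted p = 1.55e-17) and 2.09 (SE 0.06, adjusted p = 8.04e-15), Reg3b from between 2121 and 2600 CPM to between 10701 and 11012 CPM. Il18 was called at 0.11 (SE 0.04, adjusted p = 0.0314) although its unscaled CPM was lower in every library labelled IE-HuR-/-. In the remaining enterocytes alone 8 of 11 rose and 3 fell, where 3306 of all 12499 RNAs tested rose and 3696 fell. The share of the list that fell there was thus near that of all RNAs. Nos2, which rose over all enterocytes (0.50, SE 0.06, edgeR adjusted p = 2e-07), fell in the remaining enterocytes by 0.76 (SE 0.15, adjusted p = 0.0118). Reg1, of the same protein family as the Reg3 lectins, fell over all enterocytes by 1.40 on the log2 scale (SE 0.05, adjusted p = 1.59e-19), as did Reg3a by 0.68 (SE 0.08, adjusted p = 0.000198).

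Within ileal enterocytes the same list moved further. Here 9 of 11 tested genes rose and 0 fell (10 with an unadjusted p under 0.05 by edgeR), with a median of 2.17, and 23.9% of 8762 RNAs rose and 22.8% fell. Duox2 had 43.0, 51.3 and 65.8 against 973, 933 and 883 CPM (log2 fold change 4.47, SE 0.10, edgeR adjusted p = 2.66e-22), and Pigr, the transporter of IgA, rose by 2.17 (SE 0.08, adjusted p = 4.41e-23). Reg1 had a log2 fold change of −1.96 (SE 0.61) that did not pass the threshold (edgeR adjusted p = 0.0599). In goblet cells 7 of 11 rose and 0 fell (8 with an unadjusted p under 0.05, 8 called by DESeq2), with a median of 1.26, where 14.4% of all RNAs rose. Fut2 rose by 6.22 (SE 0.54, edgeR adjusted p = 3.17e-08), from a single control library with any UMI, Duox2 by 2.90 (SE 0.27, adjusted p = 0.000729) and Reg3g by 3.27 (SE 0.40, adjusted p = 0.00514). In goblet cells and in ileal enterocytes Fut2 would not have passed the filter on low counts through the control libraries alone, so only a rise could be called for it. Reg3b rose by 3.12 (SE 0.52, adjusted p = 0.0164) in goblet cells, a call that edgeR no longer made without replicate 2 (0.053) or 3 (0.0595) of that label, nor with the first control library left out (0.0663). Apoa1 had 10984 to 11329 CPM in control goblet cells, against 16062 to 17728 CPM in control enterocytes and 841 to 2273 CPM in control T/NK cells. The part of enterocyte RNA and of doublets in the goblet values of this list and of the lists below was not tested.

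Receptors and signal transducers moved less. Of 24 tested genes of this list in enterocytes, 13 rose and 4 fell, with a median log2 fold change of 0.13, where 27% of all RNAs rose and 31.1% fell. Leaving out TMM scaling shifted the median of all RNAs by −0.162 there, a larger amount than this median. Unscaled CPM of the called rises Jak1, Jak2, Nfkb1 and Rela overlapped between the labels in enterocytes, and those of the other called rises did not. Socs3, the feedback inhibitor of STAT3, rose by 0.57 (SE 0.04, edgeR adjusted p = 1.67e-11), and Nfkbiz, the NF-κB cofactor that IL-17 induces, by 0.56 (SE 0.05, adjusted p = 1.08e-10). Stat3 itself rose by 0.28 (SE 0.04, adjusted p = 1.37e-06). Cebpb fell by 0.77 (SE 0.06, adjusted p = 4.12e-12), from between 34.5 and 40.4 CPM to between 19.3 and 20.5 CPM. The receptor subunit Il22ra1 had 13.1, 11.1 and 11.5 against 9.49, 10.3 and 8.81 CPM and did not pass the threshold (log2 fold change −0.16, SE 0.07, adjusted p = 0.0747). It passed without control replicate 2 (edgeR adjusted p = 0.0217), without IE-HuR-/- replicate 2 (0.0254) and without TMM scaling (0.000691), and in ileal enterocytes alone the log2 fold change was 0.03 (adjusted p = 0.928). In ileal enterocytes, where 23.9% of all RNAs rose and 22.8% fell, 13 of 23 rose and 2 fell. Nfkbiz was at 1.74 (SE 0.13, edgeR adjusted p = 6.6e-14), Socs3 at 1.32 (SE 0.12, adjusted p = 3.39e-13) and Stat3 at 0.74 (SE 0.08, adjusted p = 4.32e-10). Unscaled CPM of Myd88, Jak1, Jak2, Nfkb1 and Rela overlapped between the labels, and those of the other called rises did not. Nfkb1 was called at 0.29 with 43.96, 48.48 and 41.52 against 39.97, 48.74 and 41.27 CPM. Il22ra1 had 11.34, 11.62 and 9.62 against 8.1, 10.23 and 8.08 CPM there. The effect of TMM scaling on the ileal calls of this and the other lists was not tested. In goblet cells 4 of 23 rose (Nfkbiz, Socs3, Il17rc and Tnfrsf1a) and 0 fell, where 14.4% of all RNAs rose and 12.3% fell, so that the share that rose was near that of all RNAs, with 9 at an unadjusted p under 0.05 by edgeR and 4 called by DESeq2. Unscaled CPM of Il17rc and Tnfrsf1a overlapped between the labels in goblet cells.

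**Figure D5:**
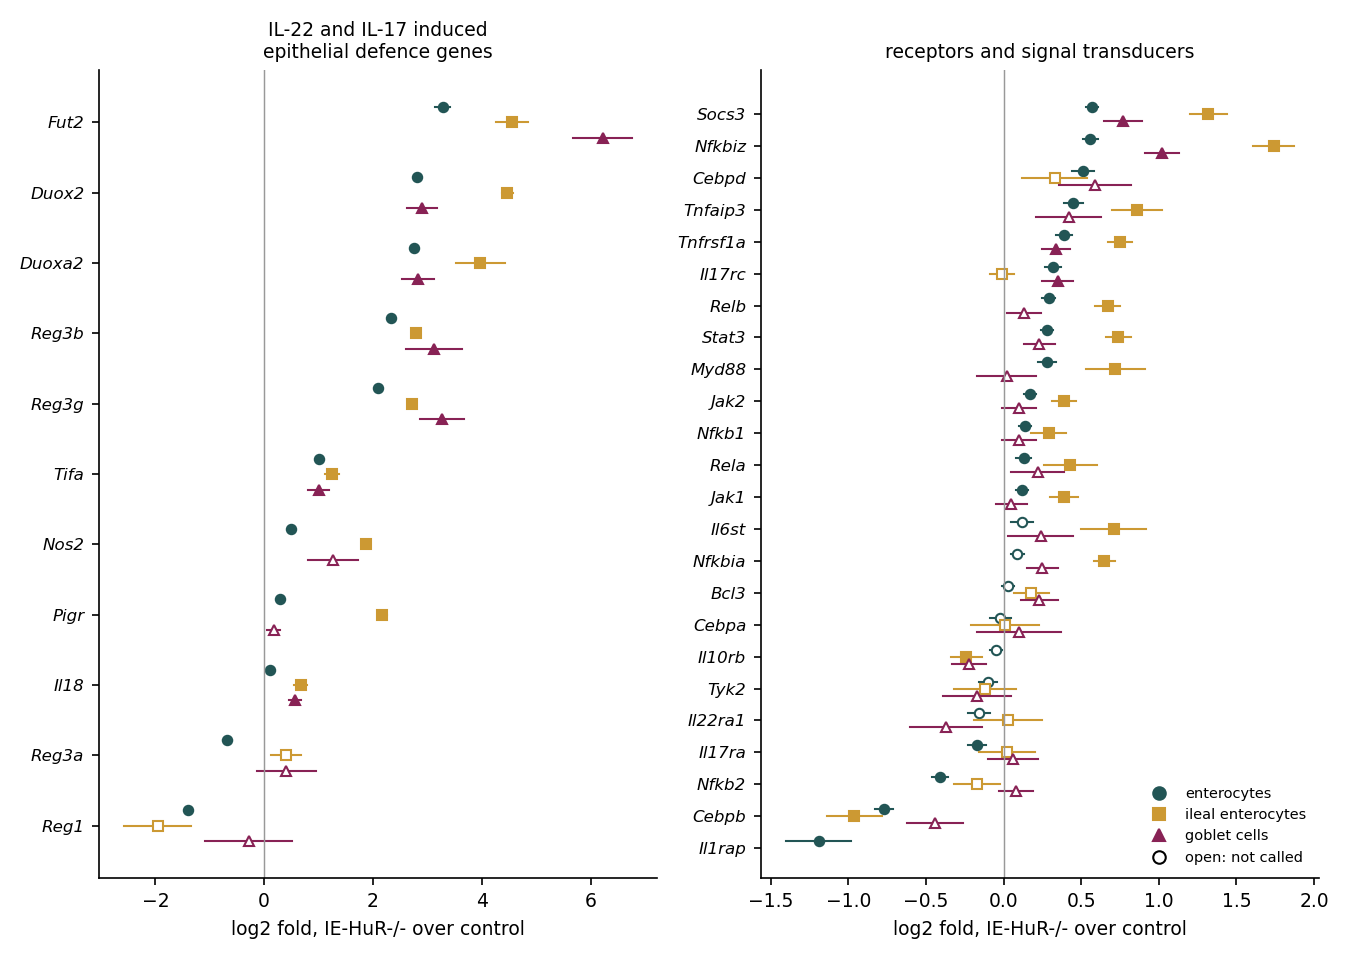
Log2 fold change between the labels, with its standard error, for the tested defence genes (left) and receptors and signal transducers (right) in enterocytes (dark circles), ileal enterocytes (squares) and goblet cells (triangles). Filled symbols passed an adjusted p under 0.05. Duox2 lies at 2.80 in enterocytes, 4.47 in ileal enterocytes and 2.90 in goblet cells, and Cebpb on the negative side in all 3 classes.

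Other acute-phase genes were mostly too low to test. Of 17 such genes, 2 passed the filter on low counts in enterocytes, and Il1rn, the IL-1 receptor antagonist, rose by 1.22 (SE 0.22, edgeR adjusted p = 2.64e-05) from between 0.51 and 0.72 CPM. Lbp, the lipopolysaccharide binding protein, was the 1 gene tested in goblet cells and rose from 5.77, 4.07 and 3.61 to 20.1, 14.0 and 24.4 CPM (log2 fold change 2.28, SE 0.24, adjusted p = 3.59e-07). Of 15 tested SAA receptors and partners in HDL or retinol transport, 3 rose and 6 fell in enterocytes, against 27% and 31.1% of all RNAs. The scavenger receptor Cd36 fell by 1.38 (SE 0.04, adjusted p = 5.4e-20) in enterocytes and by 1.81 (SE 0.14, adjusted p = 3.1e-09) in goblet cells. In goblet cells 1 of 9 genes of this list rose (Abcg1) and 5 fell, against 14.4% and 12.3% of all RNAs. In ileal enterocytes 0 of 7 rose and 3 fell (3 with an unadjusted p under 0.05 by edgeR), against 23.9% and 22.8% of all RNAs.

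The cytokines known to induce SAA were sought in immune cells. In enterocytes, where 27% of all RNAs rose and 31.1% fell, 3 of 11 such genes were tested, of which 0 rose and 1 fell. This was Lif, at a low level, from between 1.74 and 1.9 CPM to between 0.83 and 0.96 CPM (log2 fold change −0.86, SE 0.17, edgeR adjusted p = 8.99e-05). Il22 and Il17a had 0 UMIs in T/NK and in myeloid cells of all 6 libraries. The methods describe an epithelial cell suspension, checked for epithelial purity before loading, and a library held 26 to 41 myeloid cells. Counts of 0 here thus do not show that these cytokines were absent from the tissue. In T/NK cells, where 1.72% of 10894 RNAs rose and 1.14% fell, Tnf had 2.07, 1.92 and 1.47 CPM in the control libraries and 5.65, 6.17 and 8.41 CPM in the others (log2 fold change 1.82, SE 0.34, edgeR adjusted p = 0.00683), and Ifng had 7.76, 6.0 and 5.15 against 13.9, 10.9 and 17.9 CPM (1.12, SE 0.24, adjusted p = 0.02). The call for Tnf was lost without IE-HuR-/- replicate 3 (edgeR adjusted p = 0.0708). That for Ifng was lost without replicate 1 (0.0914) or 3 (0.169) of the same label, or with control replicate 1 left out (0.0524). Duox2 and Duoxa2, which are epithelial genes, were called in T/NK cells as well, Duox2 at 4.92, 9.12 and 3.31 against 39.3, 35.3 and 37.7 CPM (log2 fold change 2.58, SE 0.24, adjusted p = 9.34e-05). In all, 2 of 10 defence genes, 1 of 22 receptors and transducers (Tnfaip3) and 2 of 2 cytokines rose in T/NK cells, and 0 of these fell. The other 9 of the 11 cytokines were not tested. Tnf passed the filter on low counts only through the libraries labelled IE-HuR-/-, so only a rise could be called for it. The call for Tnfaip3 was lost without IE-HuR-/- replicate 1 (edgeR adjusted p = 0.0666) or 3 (0.0526). The part of free epithelial RNA in the defence genes was not tested. Of the partner list 1 of 11 rose and 1 fell. The rise, of Apoe, likewise passed the filter only through the libraries labelled IE-HuR-/-.

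In myeloid cells 0.0508% of 3935 RNAs rose and 0.0508% fell, that is 2 in each direction. Of the 6 tested defence genes, 18 receptors and transducers, 1 cytokine, 2 acute-phase genes and 8 partners, 0 were called there by edgeR and 0 by DESeq2. Il6ra and Apoa4 alone had an unadjusted p under 0.05. Il1b, which induces Saa3 in macrophages, had 83.8, 262 and 78.9 CPM against 82.8, 583 and 342 CPM, with overlap. These sums rested on 26 to 41 myeloid cells in a library.

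Within the libraries labelled IE-HuR-/-, enterocytes with at least 1 Saa1 UMI after thinning (267, 271 and 263 cells) were compared with those without (2417, 2445 and 2447 cells), with the library as a block. Of the positive cells 171, 168 and 151 were ileal enterocytes. The others came from the remaining enterocytes, whose thinned positive shares lay within those of T/NK cells. Of 7970 RNAs 12.7% were higher and 10.8% lower in the positive cells. Without TMM scaling, which shifted the median by −0.103, rises made up 39.9% instead of 54.0% of the calls. Of 11 tested defence genes 9 were higher and 2 lower (Reg1 and Il18), with a median log2 fold change of 1.58. Nos2, the inducible nitric oxide synthase, had 324, 316 and 314 CPM in positive and 28.3, 35.6 and 39.4 CPM in negative cells (log2 fold change 3.31, SE 0.11, edgeR adjusted p = 2.12e-197). Duox2 was higher by 1.62 (SE 0.06, adjusted p = 2.04e-144). Reg3b had 22676, 23915 and 21861 against 5534, 5152 and 5688 CPM. Of 23 tested receptors and transducers 7 were higher and 0 lower (10 with an unadjusted p under 0.05 by edgeR, 4 called by DESeq2), led by Tnfaip3, an inhibitor of NF-κB signalling (1.08, SE 0.28, adjusted p = 0.000841), and Nfkbia, which encodes IκBα (0.80, SE 0.09, adjusted p = 3.07e-17). Of the partners in lipid and retinol transport, Apoa4 was lower by 1.54 (SE 0.05, adjusted p = 4.51e-216) and Rbp2 by 1.17 (SE 0.05, adjusted p = 5.79e-132), and Apoa1 was higher by 0.37 (SE 0.05, adjusted p = 2.36e-14).

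The 5 RNAs with the largest rises in positive enterocytes were Slc6a14, an amino acid transporter (5.06, SE 0.21, edgeR adjusted p = 5.22e-127), Tac1, which encodes substance P (4.29, SE 0.38, adjusted p = 1.17e-27), Plet1 (4.16, SE 0.42, adjusted p = 7.09e-22), the ileal hormone Fgf15 (3.96, SE 0.35, adjusted p = 4.47e-27) and Tie1 (3.89, SE 0.57, adjusted p = 2.09e-10). Slc6a14 had 116, 135 and 127 CPM in positive and 4.14, 2.25 and 5.72 CPM in negative cells. Tie1 was low, at 13.1, 11.1 and 11.4 CPM in the positive cells. None of the 5 would have passed the filter on low counts through the negative cells alone, so the filter favoured rises among them. The largest falls were of rare RNAs, which passed the filter only through the negative cells. Nol12 and Zfp758 had 0 UMIs in the positive cells of all 3 libraries and between 4.5 and 5.17 CPM in the negative cells, and neither was called after thinning to 5000 UMIs (edgeR adjusted p = 0.372 and 0.371). Ugt2b35, a glucuronosyltransferase, was lower by 3.53 (SE 0.66, adjusted p = 1.11e-06). The other falls among the 5, Aarsd1 and 1110065P20Rik, did not hold without a library. Aarsd1 was not called without IE-HuR-/- replicate 1 (edgeR adjusted p = 0.0794) or 3 (0.0828), nor 1110065P20Rik without IE-HuR-/- replicate 2 (0.108) or 3 (0.185).

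Most positive cells lay in the ileal range of the list, so the comparison was repeated inside the ileal enterocytes (171, 168 and 151 positive and 166, 145 and 147 negative cells). Inside this range the thinned share of positive cells was 48.9, 43.4 and 35.1% from 0.5 to 1% of the list and 51.9, 61.8 and 56.4% above 2%. The part of the list in the differences below was not tested. Of 3373 RNAs, 5.19% were higher and 3.56% lower in positive cells. Reg3g (1.42, SE 0.09, edgeR adjusted p = 9.74e-17), Nos2 (1.25, SE 0.14, adjusted p = 9.42e-13), Reg3b (1.18, SE 0.09, adjusted p = 2.12e-13), Duox2 (0.80, SE 0.10, adjusted p = 7.98e-11) and Duoxa2 (0.55, SE 0.10, adjusted p = 8.68e-06) were the 5 of 9 tested defence genes that remained higher, and 0 were lower (7 with an unadjusted p under 0.05). None of 12 tested receptors and transducers was called by edgeR, although 4 had an unadjusted p under 0.05, and DESeq2 was not run on these sums. Stat3 had a log2 fold change of 0.49 (SE 0.21, edgeR adjusted p = 0.151) there. Of 5 tested partners in lipid and retinol transport, Rbp2 alone was called, and it remained lower by 0.77 (SE 0.08, edgeR adjusted p = 2.41e-14). Apoa4 had −0.11 (adjusted p = 0.47) and Apoa1 0.09 (adjusted p = 0.498), where both had been called over all enterocytes. Plet1 (4.81, SE 0.88, adjusted p = 2.03e-05), Slc6a14 (3.16, SE 0.32, adjusted p = 7.8e-12) and Tac1 (2.79, SE 0.48, adjusted p = 6.86e-06) again had the largest rises, followed by Sgms1 (1.68) and the glycolytic enzyme Hk2 (1.67). Nek6 (−1.65), Lct (−1.62), Ddx46 (−1.61), Slc5a4b (−1.43) and Mrpl15 (−1.32) had the largest falls. Of these 5 falls none would have passed the filter through the positive cells alone, nor would Plet1, Slc6a14 and Tac1 through the negative cells alone.

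Across 42 sums of 7 classes and 6 libraries, the genes whose level followed Saa1 most closely were sought among 6135 genes with at least 10 CPM in enterocytes. They were Acta1 (skeletal actin, Pearson r 0.868 of log2(CPM + 1)), the metallothionein Mt1 (0.862), Duoxa2 (0.843), Duox2 (0.830) and Reg3b (0.830). Acta1 had 22.9, 20.9 and 17.4 CPM in control enterocytes and 1295, 1312 and 1239 CPM in the others. The sums span both labels, the contrast on which Saa1 was chosen, and RNAs that differ between the labels in the same direction score high. Sums of 1 library also share its depth and its free RNA, so these coefficients are a description.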

How the data were processed

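Single-cell libraries of small intestinal mucosa from 3 control and 3 IE-HuR-/- mice were used as the authors deposited them, as raw UMI counts per gene and barcode. The matrix headers name cellranger 6.1.2 and the submitters' processing notes name Cell Ranger, Seurat and mm10. The methods give another version and a human reference, which the mouse gene identifiers do not match. Labels and methods also name different kits, so the sequenced end is unsettled.

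Cells with at least 200 genes and 2000 UMIs were gated by marker lists. Counts were summed per library and class and tested in edgeR 4.0.16 (R 4.3.3), with TMM scaling, quasi-likelihood F tests, a filter at a count of 10 (total 15), and Benjamini-Hochberg adjusted p under 0.05 over all RNAs. A gene can pass this filter through the sums of 1 group alone, and it can then be called only as higher in that group. DESeq2 1.42.0 was an alternative. The code was tested on simulated data. Exact Poisson and binomial 95% intervals and the limit from 3 counts cover counting error only. No doublet caller was run, and a run without the 5% of cells with the most UMIs stands in its place. The replicates are labelled as separate samples, and the paper's figure legend for these cells names 3 animals. Neither states that each animal was prepared separately. Library totals were between 59518012 and 91818560 UMIs.

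The members and the gene lists were chosen with earlier results of these data known. 1 gene of the list of receptors and signal transducers is not reported here, and counts for that list leave it out. Genes named in the text were, for each list and class, up to 6 called genes with the largest fold changes and no overlap between the labels, a fixed set of defining genes, the 5 most like Saa1, and the 5 largest rises and falls between Saa1-positive and Saa1-negative cells. Reg3a, Il18, Il17rc, Il6ra, Il1b, and Apoa1 and Apoa4 within ileal cells fall outside this rule and were chosen after their values were seen, as were Reg1 in ileal cells, Tnfrsf1a in goblet cells, Nos2 in the enterocytes outside the ileal class and Apoa4 in myeloid cells. The alternatives were no TMM scaling, no filter, other gates, depths and cell filters, the replicate number as a block, and each library left out.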

Additional observations from a re-analysis of the deposited data

Results flagged for a closer look

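Barcodes under the limits of 200 genes or 2000 UMIs entered no comparison and still held Saa1 above its level in the control libraries, at 122.2, 139.9 and 124.7 CPM in IE-HuR-/- replicates 1, 2 and 3 against 3.25, 2.34 and 0.652 CPM in the control libraries.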

How the results depend on the processing

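Of 1464 refits of 93 gene results, 1344 kept direction and side of the threshold, 67 lost a call, 23 gained one and 30 changed sign. The changes of sign were Apoa4 (0.37), Il22ra1 (0.029) and Elavl1 (−0.20) in ileal enterocytes alone; Nfkb1 without TMM scaling in enterocytes (−0.019), goblet cells (−0.079) and positive against negative cells (−0.097), and in the last also without the filter (−0.092), without IE-HuR-/- replicate 2 (−0.14) or 3 (−0.024), with doubled gates (−0.11) and at 500 genes (−0.051), as Il22ra1 at the last 2 settings (0.028 and 0.17). Elavl1 in goblet cells changed to −0.17, −0.0052, −0.0029, −0.00029, −0.087 and −0.072 (no TMM, no filter, without control replicate 3, IE-HuR-/- replicate 2 or 3, or the cells with the most UMIs). In T/NK cells Stat3 (−0.011 without control replicate 1, up to 0.12 without control replicate 3) and Nfkb1 (−0.049, halved gates) did so, and in myeloid cells Stat3 (0.049 and 0.13 without replicate 3 of either label, 0.13 with halved gates, −0.12 without IE-HuR-/- replicate 2), Nfkb1 (−0.042, −0.00016, −0.013 without control replicate 3, IE-HuR-/- replicate 1 or 2, −0.00056 with doubled gates) and Reg3b (−0.0052 and −0.012 without control replicate 1 or 3, 2.81 without control replicate 2). The cause was not tested.

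The thinned share of Saa1-positive enterocytes labelled IE-HuR-/- (9.88%) was 9.61 and 10.3% with halved and doubled gates, 10.55% at 500 genes and 25% mitochondrial UMIs, 6.87 and 14.8% at 1000 and 5000 UMIs, and 5.04% for at least 2 UMIs. The goblet share (30.1%) was 34.2% with doubled gates, 21.3 and 38.6% at 1000 and 5000 UMIs, and 19.6% for at least 2 UMIs. Leaving out 1 library gave 9.83 to 9.96% and 28.4 to 31.4%, and log2 ratios of Saa1 of 5.79 to 6.42 (enterocytes) and 5.94 to 6.73 (goblet cells). Called RNAs numbered 4084 in ileal against 7374 in all enterocytes (6678 to 7053 with 1 library left out), 1432 against 2418 in goblet cells without the cells with the most UMIs (1843 to 2323 with 1 left out), and 751 without the filter and 194 with halved gates against 311 in T/NK cells (115 to 782, lowest without IE-HuR-/- replicate 3 and highest without control replicate 3). In myeloid cells 4 became 123 without the filter, 19 by DESeq2, 17 without the cells with the most UMIs, 14 at 1000 UMIs and 0 to 16 with 1 library left out. Positive against negative cells gave 938 by DESeq2, 1078 and 2862 at 1000 and 5000 UMIs and 295 in ileal cells, against 1872 (1431 to 1508 with 1 left out).

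Same-numbered libraries correlated at 0.106, −0.217 and −0.0722, within the range of the other pairs (−0.228 to 0.346). The numbers were therefore not used to pair them, although 3 libraries of each label cannot exclude a pairing. With the replicate block 7202, 2383, 433 and 17 RNAs were called in enterocytes, goblet, T/NK and myeloid cells, and Reg3b in goblet cells (adjusted p = 0.0697) and Duoxa2 in T/NK cells (0.0514) were not called by edgeR. The ileal subsets, the 1000 UMI limit and the removal of shared barcodes were chosen after seeing the data.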
